A study of Mus musculus with 21 samples.

Results

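Immunoglobulin variable segments are the gene pieces that encode most of the antigen-binding part of an antibody. Their rows were taken from the deposited count table as all rows whose Ensembl identifier has a GENCODE M21 symbol starting with Ighv, Igkv or Iglv. This gave 348 of 55487 rows, made up of 185 Ighv rows of the heavy chain, 160 Igkv rows of the kappa light chain and 3 Iglv rows of the lambda light chain. The study sequenced messenger RNA of tumours grown from Hepa1-6, a mouse hepatoma line, in C57BL/6 mice. The 21 libraries fall into 4 groups by genotype label and antibody: B-cell depleted with anti-PD1 plus anti-CTLA4 (B-depleted combination, 5 libraries), B-cell depleted with isotype antibody (B-depleted isotype, 6), wild type with anti-PD1 plus anti-CTLA4 (WT combination, 5) and wild type with isotype antibody (WT isotype, 5). Neither the means of B-cell depletion nor the age of the mice, the doses and the times are given in the labels. They also do not say whether each library came from a separate animal, so the spread between libraries may in part be technical.

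A developing B cell joins 1 V segment to D and J pieces for its heavy chain and 1 V segment to a J piece for its light chain, and its descendants inherit both joins. A tissue with many unrelated B cells or plasma cells therefore expresses many V segments, whereas descendants of 1 cell express the same heavy and the same light segment. Plasma cells, which secrete antibody, hold far more immunoglobulin RNA per cell than other B-lineage cells and lose surface markers such as Ms4a1 (CD20). Bulk counts per segment do not read the joins, so cells that share a segment may still be unrelated, and fewer cells and less RNA per cell cannot be told apart.

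Shown first are the germline V exons, by GENCODE M21 on GRCm38, of 5 segments on which the results below turn, and of the nearest copy of 1 of them. They are printed 5′ to 3′ on the coding strand, at most the last 300 bases of the exon. Capitals run from the codon of the conserved cysteine to the end of the exon, where the hypervariable loop formed at the V(D)J join starts. Ighv9-3 lies at chr12:114140692-114140991 (minus strand) and was the most frequent heavy-chain leader. Ighv9-2 at chr12:114109001-114109300 (minus) is its nearest copy, at 94.4% identity with 17 mismatches over the whole exon.
Ighv9-3: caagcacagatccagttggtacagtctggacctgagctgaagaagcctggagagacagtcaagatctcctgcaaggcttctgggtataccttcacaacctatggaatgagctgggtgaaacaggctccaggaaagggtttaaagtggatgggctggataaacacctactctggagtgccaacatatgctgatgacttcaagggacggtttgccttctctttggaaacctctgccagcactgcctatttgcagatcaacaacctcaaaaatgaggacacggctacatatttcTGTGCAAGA
Ighv9-2: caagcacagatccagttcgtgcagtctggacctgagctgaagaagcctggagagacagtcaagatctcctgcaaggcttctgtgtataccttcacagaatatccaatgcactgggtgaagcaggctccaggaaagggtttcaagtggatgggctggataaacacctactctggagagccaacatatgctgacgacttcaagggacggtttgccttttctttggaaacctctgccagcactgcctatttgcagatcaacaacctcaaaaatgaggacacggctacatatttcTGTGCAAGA
Ighv1-82 at chr12:115952538-115952837 (minus) led 1 WT and 1 B-depleted library, Iglv1 at chr16:19085017-19085316 (minus) led the light chains of 1 B-depleted library, and the kappa segments Igkv6-23 at chr6:70260409-70260706 (minus) and Igkv12-46 at chr6:69764523-69764820 (minus) led 2 and 3 libraries.
Ighv1-82: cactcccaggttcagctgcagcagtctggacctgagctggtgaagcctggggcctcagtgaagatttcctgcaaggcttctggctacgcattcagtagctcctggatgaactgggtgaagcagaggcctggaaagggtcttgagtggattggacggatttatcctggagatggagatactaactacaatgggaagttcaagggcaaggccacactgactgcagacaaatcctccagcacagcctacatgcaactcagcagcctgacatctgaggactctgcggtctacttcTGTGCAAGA
Iglv1: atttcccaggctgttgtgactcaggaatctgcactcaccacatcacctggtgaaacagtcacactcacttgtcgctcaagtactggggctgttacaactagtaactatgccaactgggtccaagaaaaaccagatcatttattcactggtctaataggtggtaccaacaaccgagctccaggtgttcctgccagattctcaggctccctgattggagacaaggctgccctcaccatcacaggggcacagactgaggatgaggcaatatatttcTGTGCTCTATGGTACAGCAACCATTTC
Igkv6-23: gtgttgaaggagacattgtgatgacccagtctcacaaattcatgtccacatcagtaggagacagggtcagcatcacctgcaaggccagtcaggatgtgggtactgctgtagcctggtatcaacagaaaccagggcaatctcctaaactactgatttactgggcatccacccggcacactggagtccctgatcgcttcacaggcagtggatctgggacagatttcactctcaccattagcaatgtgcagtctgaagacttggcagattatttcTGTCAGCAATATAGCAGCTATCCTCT
Igkv12-46: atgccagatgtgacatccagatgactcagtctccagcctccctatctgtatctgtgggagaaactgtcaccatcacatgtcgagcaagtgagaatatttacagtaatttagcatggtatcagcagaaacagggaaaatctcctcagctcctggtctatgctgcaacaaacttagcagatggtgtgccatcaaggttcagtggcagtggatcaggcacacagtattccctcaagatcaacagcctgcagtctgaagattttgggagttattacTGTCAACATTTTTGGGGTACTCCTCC
The longest stretch that Ighv9-3 and Ighv9-2 share without a mismatch was 84 bases, and Iglv1 and Iglv2 were 97.0% identical with a shared stretch of 104 bases. How reads that match several segments were assigned is not given in the sources used here, so counts of near-identical segments are uncertain, and hypermutated transcripts may match their germline segment less well.

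Library totals ran from 9523017 to 19166818 counts, and 1 count was worth 0.105 CPM (counts scaled to a common library total, the unit of all levels below) in B-depleted combination replicate 1, the shallowest library. The 6 hepatocyte and hepatoma markers had counts in all groups, with medians of their summed level of 1900, 2521, 468 and 2757 CPM in B-depleted combination, B-depleted isotype, WT combination and WT isotype tumours (3102 CPM in B-depleted isotype tumours without replicates 3 and 5). Replicates 3 and 5 of the B-depleted isotype group went against their label. They held 1141 and 1823 V counts, more than the 78 to 386 of 4 of the 10 WT libraries, while Ms4a1, a marker of B cells, was at 0 counts in both. Jchain, the chain that joins secreted IgM and IgA and is made by plasma cells, had 104 and 148 counts in replicates 3 and 5. The other 4 libraries of that group had 1 to 8. The other listed plasma-cell markers were mixed. Irf4 (13.6 and 17.0 CPM, against 6.63 to 13.0) and Derl3 (1.92 and 0.831 CPM, against 0.445 to 0.678) were higher in these 2 replicates. Mzb1 and Tnfrsf17 had 1 and 0 counts each, and Xbp1, Prdm1 and Sdc1 did not exceed the other 4 libraries. Which cells held the V counts was not tested.

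Of the 348 rows, 203 had at least 1 count in some library and 145 had none. Counts were found for 183 of the 216 rows annotated as V gene segments but for only 19 of the 130 annotated as pseudogenes, which held 45 of the 25839 V counts (0.174%). No row had a count in every library. Iglv1 came closest, with counts in 17 libraries, while 37 rows had counts in only 1. By group, 76 rows had a count in B-depleted combination, 78 in B-depleted isotype (32 without replicates 3 and 5), 185 in WT combination and 141 in WT isotype tumours. The B-depleted libraries together covered 116 rows (90 without those 2 libraries) and the WT libraries 194, and the 107 rows in both were 92.2% of the B-depleted and 55.2% of the WT rows. The 9 rows seen in B-depleted libraries alone held 12 counts. These row numbers grow with the V counts sampled, so they do not by themselves compare diversity.

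V transcripts were scarce in B-depleted combination tumours and abundant, though uneven, in WT tumours. The summed V level was 6.62, 12.2, 0.0744, 2.36 and 6.35 CPM in replicates 1 to 5 of the B-depleted combination group, which is 63, 159, 1, 29 and 89 counts. It was 21.7, 239, 73.3, 161 and 526.5 CPM in the WT combination replicates, so every B-depleted library lay below every WT library under the combination. Among B-depleted isotype tumours the lowest level was 0.557, the median 1.73 and the highest 108 CPM. Replicates 3 and 5 were at 105 and 108 CPM, the other 4 were at 2.56 CPM or lower, and without those 2 libraries the median was 0.856 CPM. WT isotype tumours had 244, 84.4, 4.59, 16.4 and 15.1 CPM. The WT groups overlapped, since 2 WT isotype libraries exceeded WT combination replicates 1 and 3, and the medians were 161 CPM in WT combination and 16.4 CPM in WT isotype tumours. The WT isotype median was 50.4 CPM without replicate 3 or 5 and 49.8 CPM without replicate 4. No test was made of this sum over chosen rows.

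**Figure D1:**
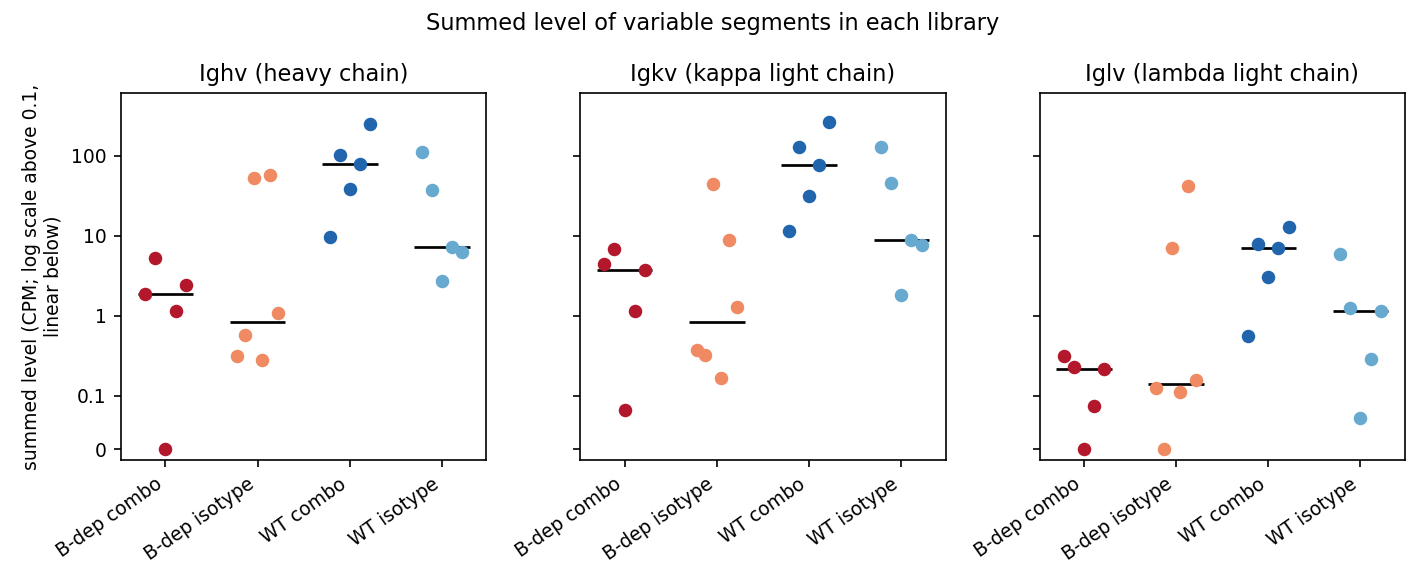
Summed level in CPM of Ighv, Igkv and Iglv rows in each of 21 libraries (points, in replicate order from left to right) with the group median (line). The vertical axis is logarithmic above 0.1 CPM and linear below. B-dep combo and WT combo are the anti-PD1 plus anti-CTLA4 groups. B-depleted isotype replicates 3 and 5 stand above the other 4 libraries of their group for all 3 classes.

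V counts were also set against counts of the constant regions. Over the 12 libraries with at least 50 Ighv counts, a library had 0.169 to 0.340 Ighv counts per count of the 8 heavy constant rows (median 0.242) and 0.414 to 0.601 light V counts per count of the 4 light constant rows. The other 9 libraries had 0 to 0.267 Ighv counts per heavy constant count and 0.192 to 0.778 light V counts per light constant count, so that some of them held constant counts with almost no V counts. In B-depleted isotype replicate 4 the heavy ratio was 0.0198 and in B-depleted combination replicate 4 it was 0.0596. The summed heavy constant level was 3.35 to 31.0 CPM in B-depleted combination, 3.32 to 177 in B-depleted isotype (at most 14.0 without replicates 3 and 5), 53.6 to 865 in WT combination and 10.1 to 391 CPM in WT isotype tumours.

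Clonality was measured in libraries with at least 50 counts of a chain, as the share of the most abundant segment and as the effective number of segments, the inverse of the unbiased Simpson index: n equally used segments give n. B-depleted isotype replicate 5 was dominated by 1 heavy and 1 light segment. Ighv9-3 held 846 of its 957 Ighv counts (88.4%, exact 95% interval 86.2 to 90.4) and Iglv1 held 697 of its 866 light V counts (80.5%, 77.7 to 83.1), with intervals that cover counting error only, here and below. The effective numbers were 1.28 heavy and 1.54 light segments. Ighg1, the constant region of IgG1, held 2310 of 2978 heavy constant counts (77.6%), and Iglc1, the lambda constant region that pairs with Iglv1, had 1161 counts against 245 of Igkc, the kappa constant region. With Ighv9-3 left out, the other 111 Ighv counts were spread over 17 segments with an effective number of 9.96. With Iglv1 left out, 169 light V counts were spread over 24 segments (effective number 11.3).

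B-depleted isotype replicate 3 used a few segments of each chain. Ighv1-82 held 179 of 580 Ighv counts (30.9%, 27.1 to 34.8), Ighv1-75 26.7% and Ighv1-39 17.4%, and Ighv9-3 held 92 counts (15.9%). Among its 561 light V counts, Igkv3-2 held 24.2%, Igkv6-23 23.9% and Igkv12-38 22.6%, and Iglv1 13.5%. The effective numbers were 4.51 heavy and 5.36 light segments, and Ighg1 held 51.1% of heavy constant counts. The leading heavy segment of replicate 5 was thus the fourth in rank in replicate 3, and the leading one of replicate 3 had 0 of 957 Ighv counts in replicate 5, which allows a share of up to 0.385% (upper exact bound).

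The B-depleted combination tumours gave few counts to measure. Replicate 2 alone reached 50 Ighv counts: Ighv9-2 held 23 of 68 (33.8%, 22.8 to 46.3) and Igkv3-5 held 24 of 91 light V counts (26.4%, 17.7 to 36.7), with effective numbers of 7.47 and 10.8. Igkv3-5 is 98.1% identical to Igkv3-10, the next in rank with 8 counts. Replicate 5 had 55 light V counts, of which Igkv6-23 held 24 (43.6%, 30.3 to 57.7), and an effective number of 4.28 light segments.

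WT tumours used more segments, at an effective number of 7.41 to 20.7 heavy and 8.76 to 24.7 light segments in the 5 WT combination libraries and 7.50 to 22.6 heavy and 10.5 to 14.4 light segments in the 4 WT isotype libraries with enough counts. These ranges overlap. The most uneven WT combination library was replicate 5, the one with the most V counts: Ighv1-82 held 1211 of 3784 Ighv counts (32.0%, 30.5 to 33.5) and Igkv6-23 1261 of 4296 light V counts (29.4%, 28.0 to 30.7). Ighg1 held 55.8% of its heavy constant counts. Elsewhere in WT the leading heavy segment held 10.9% to 23.4% in WT combination and 10.5% to 26.9% in WT isotype libraries. B-depleted isotype replicates 3 and 5 were below every WT library in effective number for both chains, and B-depleted combination replicate 2 lay within the WT range for both.

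Among the libraries with enough counts, B-depleted isotype replicates 3 and 5 were lowest at equal depth. By effective number of light segments, B-depleted combination replicate 5 (4.28) lay between B-depleted isotype replicates 3 (5.36) and 5 (1.54). When 50 counts were drawn from each library, the expected number of different Ighv segments was 17.4 in B-depleted combination replicate 2, 7.92 and 5.48 in B-depleted isotype replicates 3 and 5, 18.0 to 24.6 in WT combination and 14.5 to 23.5 in WT isotype libraries. For light segments it was 20.8 and 11.4 in B-depleted combination replicates 2 and 5, 9.78 and 7.79 in B-depleted isotype replicates 3 and 5, 19.2 to 25.4 in WT combination and 16.4 to 19.7 in WT isotype libraries. No test was made, since only 2 libraries of the B-depleted isotype and 1 or 2 of the B-depleted combination group could be measured.

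**Figure D2:**
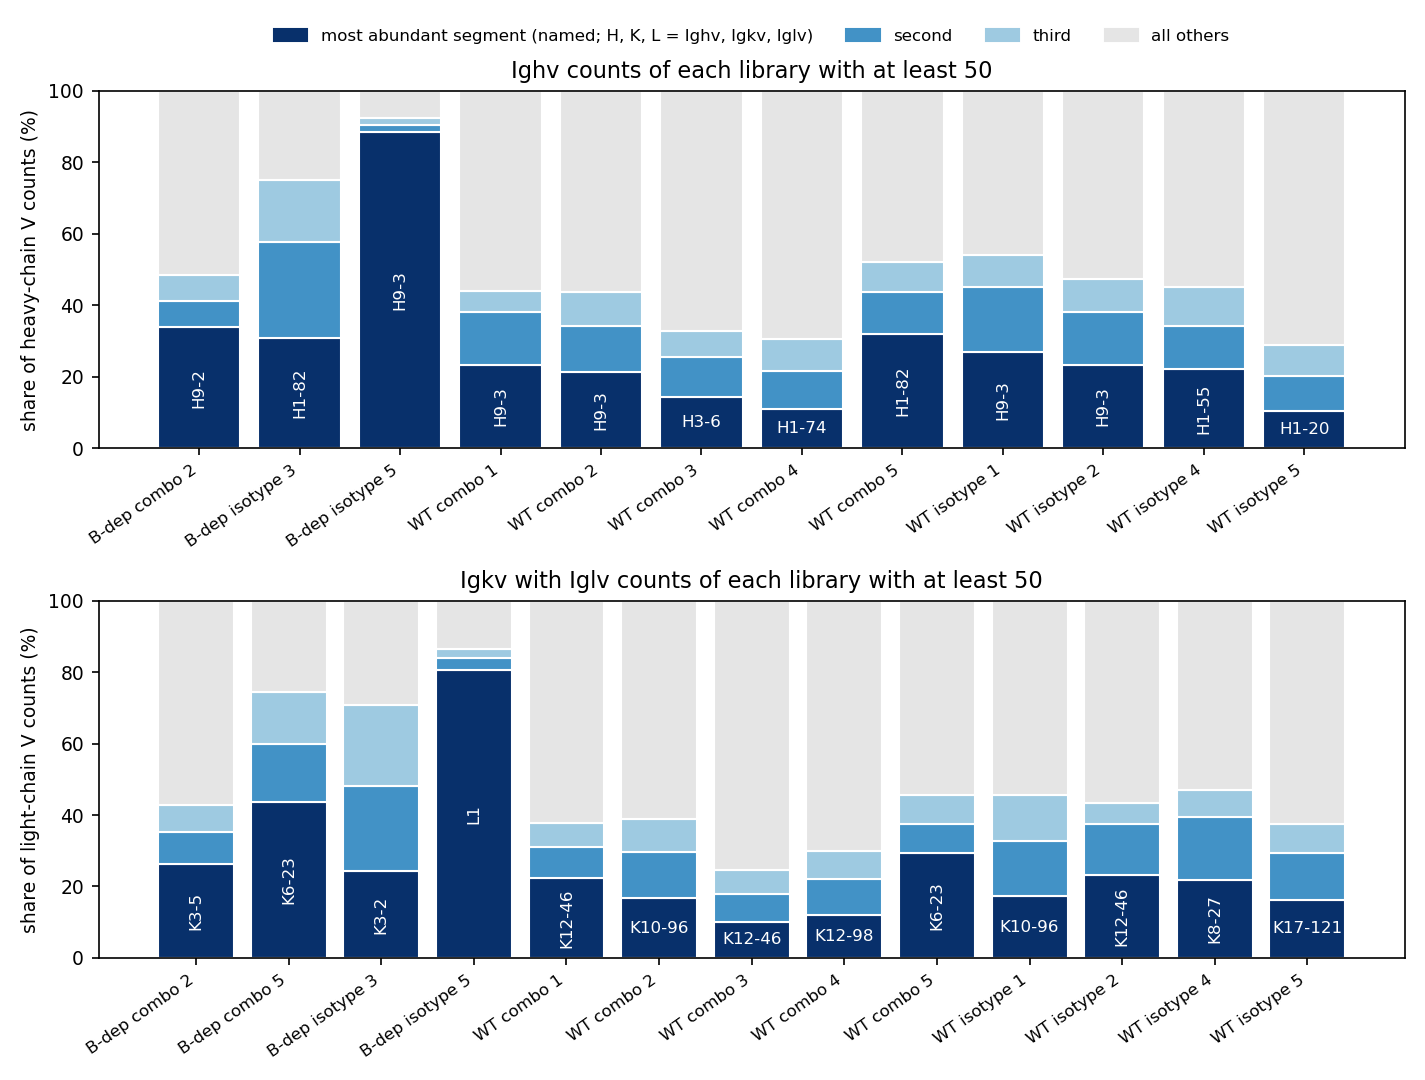
Share of the 3 most abundant segments in the Ighv counts (top) and the light V counts (bottom) of each library with at least 50 such counts, in percent, with the leading segment named. In B-depleted isotype replicate 5 1 segment holds 88.4% of heavy and 80.5% of light counts, and in the WT libraries shown no segment exceeds 32.0%.

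**Figure D3:**
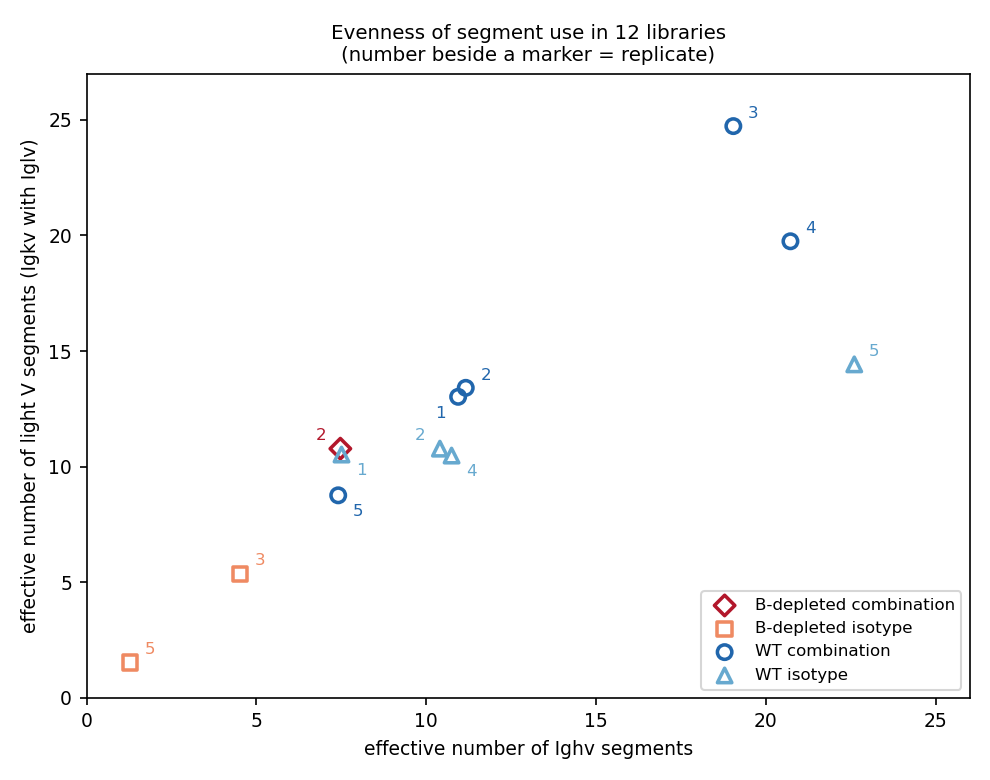
Effective number of Ighv segments (horizontal) and of light V segments (vertical) in the 12 libraries with at least 50 counts of both chains; markers show the group and numbers the replicate. B-depleted isotype replicates 5 and 3 lie at the lower left, at 1.28 and 4.51 heavy segments.

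The leading segment differed between tumours. The 12 libraries with enough Ighv counts had 7 different heavy leaders, and Ighv9-3 led 5 of them: B-depleted isotype replicate 5, WT combination replicates 1 and 2 and WT isotype replicates 1 and 2. The 13 libraries with enough light V counts had 9 different leaders, of which Igkv12-46 led 3 and Igkv10-96 and Igkv6-23 led 2 each. Other heavy leaders were Ighv3-6 (14.4%) and Ighv1-74 (10.9%) in WT combination replicates 3 and 4, and Ighv1-55 (22.2%) and Ighv1-20 (10.5%) in WT isotype replicates 4 and 5. Other light leaders in WT tumours were Igkv12-98 in WT combination replicate 4 (12.1%) and Igkv8-27 and Igkv17-121 in WT isotype replicates 4 and 5 (21.9% and 16.3%). By family, as the number after Ighv or Igkv names it, Ighv1 was the largest in 11 of 12 libraries, at a median of 48.7% of Ighv counts, and holds 53 of the annotated heavy gene segments. The Ighv9 family has only 4 gene segments but held a median of 21.2%, and it was the largest in B-depleted isotype replicate 5.

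Ighv9-3 had the highest mean level of any V row. Its level was 0.105, 0, 0, 0 and 0 CPM in B-depleted combination replicates 1 to 5 and had a lowest value of 0, a median of 0.235 and a highest of 50.2 CPM in B-depleted isotype tumours, where 3 of 6 libraries had none. Without replicates 3 and 5 the highest of that group was 0.470 CPM. It was 2.25, 21.8, 4.28, 6.999 and 10.7 CPM in WT combination and 29.6, 8.78, 0.0588, 0.744 and 0.165 CPM in WT isotype tumours. All WT combination libraries lay above all B-depleted combination libraries, and the WT groups overlapped.

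Ighv1-82 was high in few tumours. It was at 0, 0.308, 0, 0 and 0.4998 CPM in B-depleted combination, between 0 and 16.4 CPM in B-depleted isotype (median 0.0313), at 0.112, 2.98, 0.126, 0.534 and 78.9 CPM in WT combination and at 0.0552, 0, 0.235, 0.859 and 0.110 CPM in WT isotype tumours. Without replicates 3 and 5 the B-depleted isotype group reached 0.385 CPM at most. The highest values came from B-depleted isotype replicate 3 and WT combination replicate 5, and the remaining 19 libraries were at 2.98 CPM or lower. Igkv6-23 was highest in those same libraries of the 2 groups, at 12.3 CPM in B-depleted isotype replicate 3 and 82.2 CPM in WT combination replicate 5, but it was also at 17.5 and 6.59 CPM in WT isotype replicates 1 and 2, where Ighv1-82 was at 0.0552 and 0 CPM.

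Ighv1-77 was more restricted still, at 20.5 CPM in WT combination replicate 5, 0.475 in WT combination replicate 4 and 0.165 CPM in WT isotype replicate 5, with 0 counts in the other 18 libraries. Ighv2-9-1 was at 20.04 CPM in WT isotype replicate 1 and at 1.19 CPM or lower in all others. Ighv14-4 reached 29.1 and 9.39 CPM in WT combination replicates 5 and 2 and stayed at 0.629 CPM or lower elsewhere, and Igkv9-120 reached 22.9 and 12.5 CPM in the same 2 libraries and 0.662 CPM or less elsewhere.

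Igkv12-46 was spread more evenly. It was at 0.210, 0, 0, 0 and 0 CPM in B-depleted combination, between 0 and 1.19 CPM in B-depleted isotype (median 0.157; at most 0.313 without replicates 3 and 5), at 2.699, 17.8, 3.52, 8.30 and 12.5 CPM in WT combination and at 20.6, 10.9, 0, 0.515 and 0.717 CPM in WT isotype tumours. In B-depleted isotype replicates 3 and 5 it held 2.32% and 0.808% of light V counts, against 4.47% to 22.3% in WT combination and 5.63% to 23.3% in the 4 WT isotype libraries with enough counts.

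**Figure D4:**
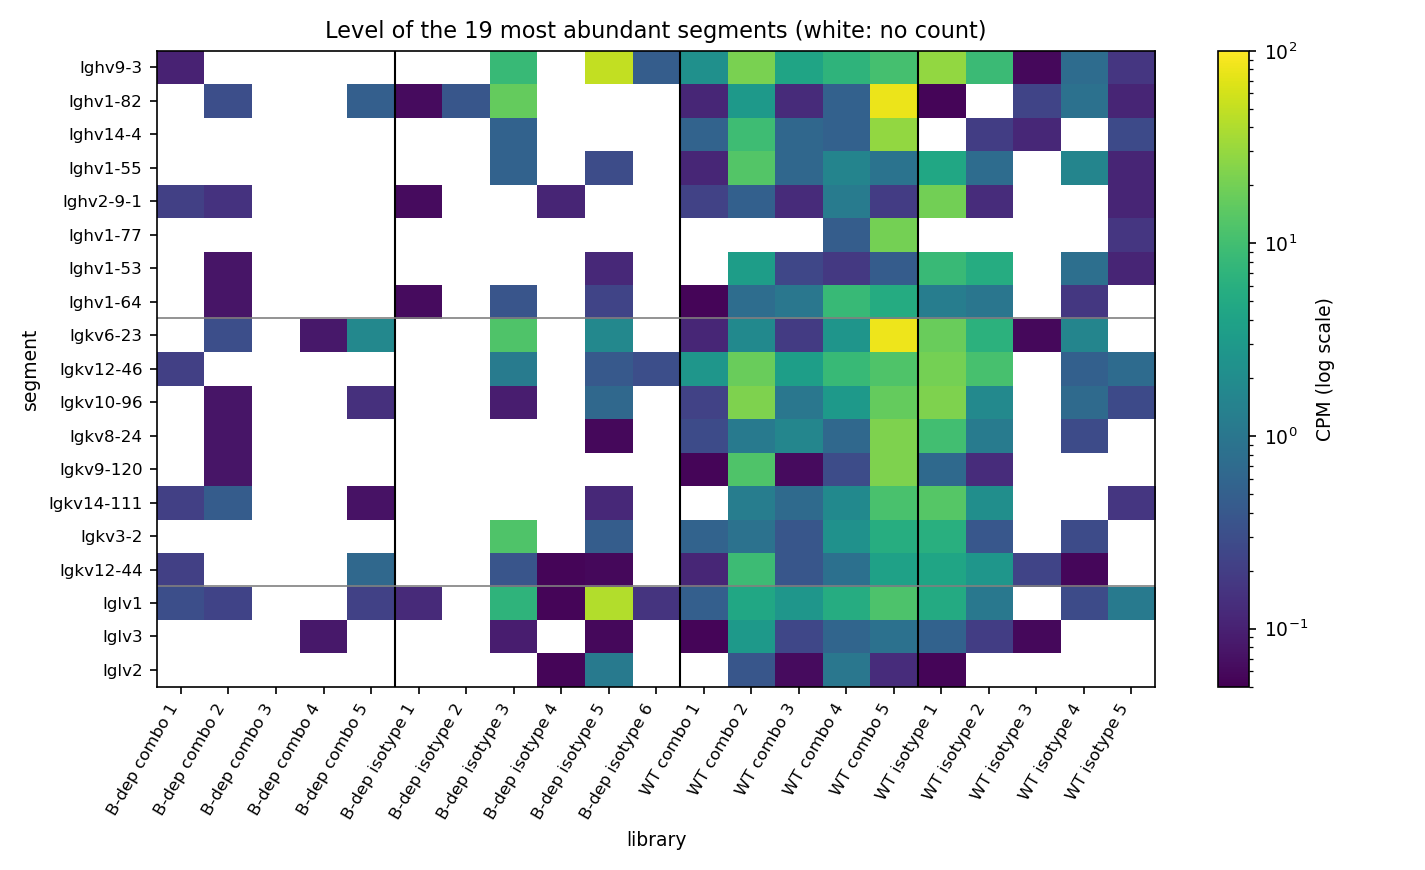
Level in CPM (colour, log scale; white marks no count) of the 8 Ighv, 8 Igkv and 3 Iglv rows with the highest mean level, in the 21 libraries. Ighv9-3, Igkv12-46 and Iglv1 have counts in all 5 WT combination libraries. Ighv1-82 is highest in WT combination replicate 5 and B-depleted isotype replicate 3. Igkv6-23 is highest in WT combination replicate 5, followed by WT isotype replicate 1 and B-depleted isotype replicate 3. Ighv2-9-1 peaks in WT isotype replicate 1.

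Mouse light chains are mostly kappa. Lambda segments held 3.30% and 5.45% of light V counts in B-depleted combination replicates 2 and 5, 13.7% and 82.8% in B-depleted isotype replicates 3 and 5, 4.59% to 8.66% in WT combination and 2.70% to 13.1% in WT isotype libraries. The constant rows gave the like picture: lambda was 10.9% and 83.0% of light constant counts in B-depleted isotype replicates 3 and 5, against 2.06% to 6.55% in WT combination and 1.14% to 6.23% in the 4 WT isotype libraries. In WT combination replicate 5 the lambda share of V counts (4.59%, 3.98 to 5.25) was above that of constant counts (2.06%, 1.76 to 2.40), and the same held in WT isotype replicate 1 (4.38%, 3.60 to 5.27, and 1.58%, 1.25 to 1.97). Near-identical lambda rows limit how far these shares can be set against each other.

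**Figure D5:**
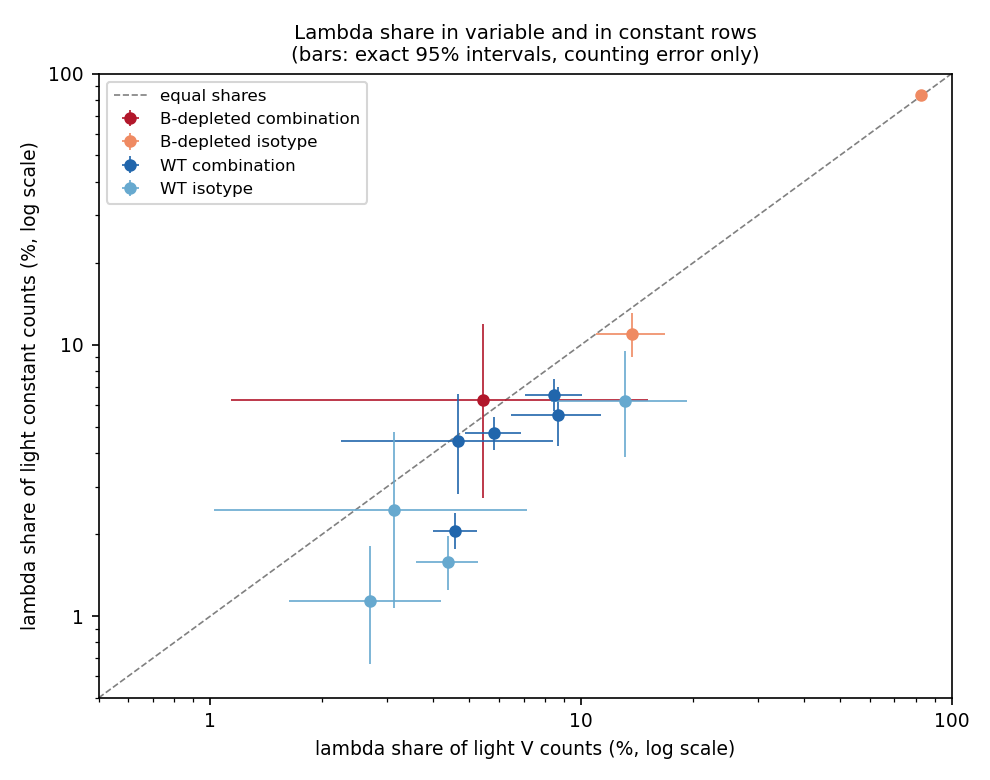
Lambda share of light V counts (horizontal) against lambda share of light constant counts (vertical), both in percent on log axes, with exact 95% intervals for counting error. Shown are libraries with at least 50 light V counts; B-depleted combination replicate 2, with 0 of 200 constant counts from lambda, is not drawn. B-depleted isotype replicate 5 stands at 82.8% and 83.0%, and the others are at 13.7% or lower.

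For tests between groups, edgeR's quasi-likelihood test was fitted to all 19061 genes that passed a filter on low counts, with p-values adjusted over all of them by the Benjamini-Hochberg method and genes called below 0.05. Of the 348 V rows 21 passed the filter. For 18 of these, fewer than 5 libraries outside the WT combination group reached the level the filter asks for, so they passed only with the help of the WT combination libraries, and comparisons with that group are not independent of the filter. Their counts and medians below describe the tests and are no support for a difference of V segments as a whole.

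Under the combination, 18 of the 21 tested V rows were called lower in B-depleted than in WT tumours and none higher, where 13.5% of all genes were called lower and 15.5% higher. The median log2 fold change was -5.94, or -5.57 with the 5 rows at 0 in B-depleted tumours set at their bound, against 0.00 over all genes. Summed over libraries, Ighv9-3 had 1 count in the B-depleted and 734 in the WT combination group, a pooled ratio of 0.00179 (exact interval 4.52e-05 to 0.00999; log2 fold change -8.59, SE 2.77, edgeR adjusted p = 0.0287). Igkv12-46 had 2 and 716 counts (ratio 0.00366, 0.000443 to 0.0133; log2 -7.80, SE 1.68, adjusted p = 0.00755). Ighv3-6 had the smallest p: its level was 0, 0.231, 0, 0 and 0 CPM in B-depleted combination and 0.450, 3.68, 5.54, 1.19 and 5.60 CPM in WT combination tumours, with no overlap (log2 -5.91, SE 1.00, adjusted p = 0.00429).

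A further 3 named rows had no count in the B-depleted combination group. With 3 counts over the group as the floor, Ighv1-55 was at least 65.3-fold, Igkv6-25 at least 57.9-fold and Ighv10-1 at least 22.1-fold lower than in WT combination tumours (adjusted p = 0.0177, 0.0207 and 0.0123). The other named rows were Ighv1-64 with 1 count in B-depleted and 251 in WT combination tumours, Igkv1-117 with 1 and 116, Igkv8-24 with 1 and 408, Igkv10-96 with 3 and 689, Ighv6-3 with 2 and 150 and Igkv6-15 with 5 and 187 counts, at edgeR adjusted p from 0.00811 to 0.0145. Iglv1 fell as well (log2 -5.05, SE 1.86, adjusted p = 0.0476), and Igkv6-23, Igkv3-2 and Igkv12-41 did not pass (adjusted p = 0.0534, 0.0834 and 0.346).

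Leaving out single libraries changed both this count and the number of V rows that passed the filter, to 8 of 24 without WT combination replicate 5, 31 of 35 without WT combination replicate 1 and 29 of 35 without WT isotype replicate 3. The call of Ighv9-3 was lost without any of 7 libraries (WT combination replicates 2, 4 and 5 and B-depleted combination replicates 1 to 4; highest adjusted p 0.0740). That of Igkv6-25 was lost without WT combination replicate 4 or 5, those of Igkv8-24 and Igkv6-15 without WT combination replicate 5, and that of Ighv1-55 without WT combination replicate 2. Without B-depleted isotype replicate 3, Igkv6-25 did not pass the filter and was not tested. The same held for Ighv10-1 without B-depleted isotype replicate 5, and it kept its call in the 20 refits that tested it. Iglv1 was not among the called rows in 12 of the 21 refits (without WT combination replicate 2, 4 or 5, WT isotype replicate 2, 4 or 5, any B-depleted combination replicate or B-depleted isotype replicate 3). The summed level of 4 Y-linked genes also differed, with a median of 102 CPM in B-depleted combination and 206 CPM in WT combination tumours, and the summed level of T-cell markers had medians of 267 and 450 CPM. Their part in the result was not tested beyond a fit with the Y-linked level as a covariate, in which none of the 21 rows was called by edgeR (5 at an unadjusted p under 0.05) and 4 of all 19061 genes were, against 5545 without the covariate. Fitted on the 2 groups alone, 3 V rows passed the filter and 2 were called.

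In WT tumours 3 of the 21 tested V rows were higher under the combination than under isotype antibody, where 25.0% of all genes were called higher. The share among V rows was thus no larger than that among all genes. The median log2 fold change was 1.20, against 0.00 over all genes. Ighv3-6 had 260 counts in WT combination and 20 in WT isotype tumours, where its levels were 0.718, 0.0665, 0, 0.286 and 0.0552 CPM (log2 3.82, SE 0.76, edgeR adjusted p = 0.000694). Ighv10-1 was at 1.41, 1.52, 0.692, 0.356 and 1.37 CPM in WT combination tumours, and in WT isotype tumours at 0.333 CPM in replicate 2 and 0 in the other 4 (log2 4.01, SE 1.12, adjusted p = 0.00816). The groups did not overlap for Ighv10-1, and for Ighv3-6 they overlapped in WT combination replicate 1 (0.450 CPM).

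Ighv1-64, at 0.0562, 0.761, 1.01, 8.30 and 5.34 CPM in WT combination and 1.27, 0.998, 0, 0.172 and 0 CPM in WT isotype tumours, overlapped more (log2 2.69, SE 0.96, adjusted p = 0.0262) and lost its call without any of WT combination replicates 4 and 5 and WT isotype replicates 3, 4 and 5 (highest adjusted p 0.123). Ighv9-3 differed by a log2 fold change of 0.25 (SE 1.36, adjusted p = 0.893) and Iglv1 by 1.71 (SE 1.33, adjusted p = 0.293). Without B-depleted isotype replicate 5, Ighv10-1 did not pass the filter and was not tested, and it kept its call in the other 20 refits. The called V rows, and with them the V rows that passed the filter, were 13 of 31 without WT isotype replicate 1, the isotype library with the most V counts, and 9 of 29 without WT isotype replicate 2. They were 8 of 35 to 38 without WT combination replicate 1 or any of B-depleted combination replicates 1 to 4, 7 of 37 without B-depleted combination replicate 5 and 6 of 30 to 35 without WT combination replicate 3 or any of WT isotype replicates 3, 4 and 5. Without both V-rich B-depleted isotype libraries they were 7 of 33. The Y-linked level had a median of 206 CPM in WT combination (135 to 250) and 78.1 CPM in WT isotype tumours (47.6 to 79.2), and T-cell markers a summed median of 450 and 113 CPM. The Y-linked ranges did not overlap, so a fit with that level as a covariate can hardly tell it apart from the antibody. The part of the T-cell level in the result was not tested. With the Y-linked level as a covariate no V row was called and Ighv1-64 turned to -3.50, while 12 V rows had an unadjusted p under 0.05. In the same fit 77 of all 19061 genes were called, against 9529 without the covariate.

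No V row was called in the other comparisons. For the combination against isotype antibody in B-depleted tumours, the calls made up 0.341% of all genes, with 0.304% called higher and 0.0367% lower under the combination. Of the 21 V rows, 4 had an unadjusted p under 0.05 by edgeR, and DESeq2 called 5. Without the 2 V-rich isotype libraries edgeR again called 0. For B-depleted against WT under isotype antibody, 0.00% of genes were called by edgeR (563 genes at an unadjusted p under 0.05), and DESeq2 called no V row. Of the 21 V rows, 17 had a lower and 4 a higher estimate in B-depleted tumours. Their median log2 fold change was -3.11, against -0.012 over all genes. By edgeR 12 V rows had an unadjusted p under 0.05, all of them lower. Without those 2 libraries 0 V rows were called as well. In that fit 24 of 33 tested V rows and 956 of 19293 genes had an unadjusted p under 0.05. The difference between the antibody responses of B-depleted and WT tumours, tested as an interaction, was called for 0.0262% of genes (0.0157% higher and 0.0105% lower) and no V row (4 at an unadjusted p under 0.05, and 4 called by DESeq2). Without the 2 V-rich libraries it was called for 0 of 33 tested V rows, with 0 at an unadjusted p under 0.05.

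Of 15 listed genes of the B-cell receptor complex 9 were tested. Under the combination 5 fell in B-depleted against WT tumours and none rose, where 13.5% of all genes were lower and 15.5% higher. Among them were Cd79a and Cd79b, which carry the receptor's signal into the cell (log2 -4.11, SE 0.82, adjusted p = 0.00550, and -1.77, SE 0.46, adjusted p = 0.0129), the adaptor Blnk (-1.01, SE 0.31, adjusted p = 0.0235) and the kinase Btk. Cd79a was at 0, 0, 0, 0 and 0.428 CPM in B-depleted combination and 0.844, 2.09, 0.881, 2.19 and 2.80 CPM in WT combination tumours. Blnk lost its call without any of WT combination replicates 4 and 5 and B-depleted combination replicates 3 and 4.

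In WT tumours 8 of the 9 rose under the combination and 1 fell, Cd81, a membrane protein that many cell types express (log2 -0.53, SE 0.11, adjusted p = 0.000715). Of all genes 25.0% were called in each direction in this comparison. The kinases Syk and Btk rose by 1.42 (SE 0.29, adjusted p = 0.000877) and 1.35 (SE 0.29, adjusted p = 0.00117) and the adaptor Blnk by 1.41 (SE 0.31, adjusted p = 0.00134). Myeloid cells also express these 3 genes, and with the Y-linked covariate Btk and Blnk turned to -0.20 and -0.071. Among the constant rows, 5 of 6 heavy and both tested light rows were lower in B-depleted than in WT tumours under the combination (13.5% of all genes), with Ighm at 3.27 to 15.3 CPM in B-depleted and 20.4 to 96.3 CPM in WT combination tumours. The 11 B-cell markers had a summed level of 20.4 to 42.4 CPM in B-depleted combination, 8.95 to 28.1 in B-depleted isotype (at most 17.0 without replicates 3 and 5), 44.5 to 95.4 in WT combination and 12.3 to 30.4 CPM in WT isotype tumours, and no listed marker was at 0 in all libraries of a group.

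Genes that cut, join and mutate V segments changed in both directions or had few counts. Rag2, a subunit of the recombinase that starts V(D)J joining, was at 0 in all 21 libraries. Rag1 had at most 3 counts in any library and was at 0 in most libraries of every group. Of the 16 listed genes 12 were tested, most of them repair factors that dividing cells use in general. Under the combination 5 rose and 2 fell in B-depleted against WT tumours, and in WT tumours 2 rose and 5 fell under the combination. Of all genes 15.5% were higher and 13.5% lower between the combination groups, and 25.0% each way in WT tumours, so the 7 of 12 called in WT tumours are near the share of all genes called there. Xrcc5, a subunit of the Ku end-binding complex, was at 32.8, 34.1, 37.1, 32.98 and 23.3 CPM in B-depleted combination and 25.9, 19.2, 26.8, 17.8 and 15.6 CPM in WT combination tumours (log2 0.58, SE 0.13, adjusted p = 0.00814). The mismatch repair gene Msh6 was higher in B-depleted combination tumours by 0.47 on the log2 scale (edgeR adjusted p = 0.0118).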

How the data were processed

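The authors deposited a table of read counts per gene, 1 column per library, unnormalized as its whole numbers and unequal totals show. Reads were handled with cutadapt 2.4 and STAR 2.7.2a on GRCm38, per the submitters' processing notes. Not given in the sources used here: the counting program, strand setting and annotation. Per the labels' protocols, libraries were made from poly(A) RNA with a stranded kit. All 21 columns were used, mapped to the 4 groups by sample title. Identifiers were matched without version to GENCODE M21 (55227 of 55487). The members, gene lists and tests were chosen with earlier results of these data known.

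CPM are counts scaled to the library total, without further factors. Segment shares have exact Clopper-Pearson 95% intervals and were computed, like effective numbers and the expected number of segments in 50 counts, only for libraries with at least 50 counts of the chain. The leading shares of WT isotype replicate 3 are given as well, below that minimum. Sums, shares and effective numbers were described and not tested. A fold against a group at 0 uses a floor of 3 counts over the group, and pooled ratios are of counts summed over the libraries of a group.

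Counts were fitted in R 4.3.3 with edgeR 4.0.16 (limma 3.58.1): filterByExpr by group, TMM factors of 0.953 to 1.03, robust quasi-likelihood fit with 4 group means and no covariate to all 21 libraries, and Benjamini-Hochberg adjustment over 19061 genes. The procedure was tested on simulated data. Alternatives were DESeq2 1.42.0, its size factors in edgeR, no filter, the title number as a block, the groups compared alone, a Y-linked covariate, and leaving out each library or both V-rich B-depleted isotype libraries (a setting added after the data were seen, as was division by exon length). The text names up to 12 called V segments per comparison by smallest p, each library's leading segments, the 8 Ighv and 8 Igkv rows of highest mean CPM with all Iglv rows, fixed context rows, and up to 4 called members of each list by smallest p. Segments further down in B-depleted isotype replicate 3, Igkv3-10, the leading segments of WT isotype replicate 3 and tested rows that did not pass were chosen after their values were seen. Promoter sequences of V segments were not used here. Some listed genes are not reported here.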

Additional observations from a re-analysis of the deposited data

Results flagged for a closer look

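A value is listed here when it lay at an end of its group and its gap to the next library, divided by the range of the group, passed Dixon's limit at 95%. This held for 23 of 61 groups of values; for normally distributed values chance gives about 1 in 20. Levels of V segments are skewed, and a group with counts in 1 library alone passes whatever that count is, so 1 in 20 is not the rate to expect here.

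In B-depleted combination tumours the highest value stood apart for 5 segments. Ighv9-3 (0.105 CPM), Ighv1-64 (0.0770 CPM), Ighv3-6 (0.231 CPM) and Igkv12-46 (0.210 CPM) each had counts in 1 library and 0 in the other 4, and each rests on 1 to 3 counts. Igkv6-23 was at 1.71 CPM in replicate 5, with 0.308 CPM next.

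In B-depleted isotype tumours replicate 5 stood apart for the Iglv sum (42.5 CPM, with 7.05 CPM next), Iglv1 (41.4 CPM), Ighv9-3 (50.2 CPM), Ighv10-1 (0.831 CPM) and Igkv10-96 (0.653 CPM). Replicate 3 stood apart for the Igkv sum (44.3 CPM, with 8.84 CPM next), Ighv1-82 (16.4 CPM), Igkv6-23 (12.3 CPM) and Igkv12-46 (1.19 CPM).

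In WT combination tumours replicate 5 stood apart for Ighv1-82 (78.9 CPM, with 2.98 CPM next) and Igkv6-23 (82.2 CPM, with 2.61 CPM next).

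In WT isotype tumours replicate 1 stood apart for the Iglv sum (5.85 CPM), Iglv1 (5.24 CPM) and Igkv10-96 (23.1 CPM), replicate 2 for Ighv10-1 (0.333 CPM) and replicate 4 for Ighv1-82 (0.859 CPM). Replicate 5 stood apart with the highest light effective number (14.4) and the highest lambda share of light V counts (13.1%).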

How the results depend on the processing

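Where an SD could be taken, summed levels and leading shares moved by less than 1 SD between replicates under each alternative run, among them TMM scaling, no pseudogenes, division by exon length and leaving out each replicate. This is a wide limit. In B-depleted isotype tumours the SD of the summed level was 54.3 CPM at a median of 1.73 CPM. Their median leading heavy share was 59.6% over 2 libraries, and 30.9% or 88.4% without 1 of them. With 2 libraries such a shift is always below 1 SD. The heavy share of B-depleted combination tumours rests on 1 library and was compared with its exact interval. Effective numbers moved with the index: by the exponential of the Shannon entropy they were 11.7 for heavy segments in B-depleted combination, 19.8 heavy and 21.2 light in WT combination and 17.2 light in WT isotype tumours, and at a minimum of 20 counts B-depleted combination had 5.32 heavy segments. The count of called V rows for B-depleted against WT under the combination was 32 without a filter, 0 with the Y-linked covariate, 2 with only the groups compared and 43 by DESeq2, and 8 to 31 without 1 library. For the combination against isotype in WT it was 32 without a filter, 0 with the covariate, 14 by DESeq2 and 7 without both V-rich B-depleted isotype libraries, and 2 to 13 without 1 library. DESeq2 called 5 V rows for the combination in B-depleted tumours and 4 for the interaction (0 to 2 by edgeR without 1 library). Counts over all genes moved too. For the combination in WT the count was 9529, and 77 with the Y-linked covariate. In B-depleted tumours it was 65, and 35 without a filter, 33 with the title number as a replicate block, 31 with the Y-linked covariate, 6 with only the groups compared, 801 without the 2 V-rich libraries, 384 by DESeq2 and 11 to 178 without 1 library. For B-depleted against WT under isotype it was 0, and 1 without a filter, 1 with the block, 16 with the covariate, 5 by DESeq2 and 0 to 2 without 1 library. Under the combination it was 5545, and 3343 without a filter, 4 with the covariate and 2182 to 7604 without 1 library. The interaction had 5, and 0 with the block, the covariate or without the 2 V-rich libraries, 1186 by DESeq2 and 0 to 1540 without 1 library. With the covariate, Blnk (-0.0709), Btk (-0.20) and Ighv1-64 (-3.50) changed sign for the combination in WT. The cause of these shifts was not tested. The title numbers do not pair the libraries: same-numbered libraries correlated at -0.36 to 0.55 in their deviations from the group means. With the block, 13 and 2 V rows were called where 18 and 3 were without it. At 1 to 159 V counts per B-depleted combination library, segment use was largely not measurable there.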

Other observations

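The most frequent heavy leader and the most frequent light leader can be set side by side. They were put together after their values were seen, and no test was made. Ighv9-3 held 23.4%, 21.4%, 11.1%, 8.98% and 4.33% of Ighv counts in WT combination replicates 1 to 5, where Igkv12-46 held 22.3%, 12.9%, 10.1%, 9.96% and 4.47% of light V counts. In WT isotype replicates 1, 2, 4 and 5, Ighv9-3 held 26.9%, 23.3%, 10.3% and 2.63% and Igkv12-46 held 15.4%, 23.3%, 5.63% and 8.13%. In B-depleted isotype replicate 5, where Ighv9-3 held 88.4%, Igkv12-46 held 0.808% and Iglv1 80.5%. Bulk counts do not show which heavy and light chains were in 1 cell.

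The heavy constant row with the most counts also differed between tumours. Ighg1 had the most heavy constant counts in B-depleted isotype replicates 3 and 5, WT combination replicate 5 and WT isotype replicates 1 and 2. Ighg2c, another IgG class, led in WT combination replicates 2 and 4, with 50.4% and 33.0%. Igha, the class of mucosal antibody, led in B-depleted combination replicate 2 (43.9%) and WT isotype replicate 4 (59.1%). Ighm led with 42.9%, 80.0% and 50.6% in B-depleted combination replicates 1, 4 and 5, 69.8% to 87.3% in B-depleted isotype replicates other than 3 and 5, 38.1% and 39.1% in WT combination replicates 1 and 3, and 66.3% and 43.0% in WT isotype replicates 3 and 5. B-depleted combination replicate 3 had 45 heavy constant counts, too few to be given. B-depleted isotype replicates 1, 2, 4 and 6 had 53, 78, 252 and 140 heavy constant counts but only 5, 9, 5 and 21 Ighv counts. Whether constant counts with so few V counts come from antibody transcripts was not tested, so Ighm need not be the antibody class there.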
